A study of Mus musculus with 19 samples.

Results

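The mitotic spindle and kinetochore genes are 41 genes that carry a cell through mitosis, taken from a fixed list of mouse symbols matched to the Ensembl IDs of the count table with the version removed. All 41 were found among the 55487 IDs of the table, and all 41 were among the 16909 genes left after low counts were removed. RNA sequencing was done on 19 samples labelled as oral squamous cell carcinoma from C57BL/6J mice. All groups, vehicle included, had received the carcinogen 4-nitroquinoline 1-oxide (4NQO) at 100 µg/ml in drinking water for 10 weeks from an age of 6 weeks, and plain water after that. The groups were vehicle (4 samples), regorafenib at 5 mg/kg/day (4), anti-PD1 (3), anti-PD1 + regorafenib, called the combination here (5), and an anti-CD40 agonist (3). Regorafenib inhibits several kinases, among them receptors for vascular and platelet-derived growth factors, anti-PD1 is an antibody against an inhibitory receptor of T cells, and CD40 is an activating receptor of antigen-presenting cells. The labels give no dose for either antibody or for the combination, no length of treatment, and no statement that each sample is 1 animal. P-values therefore reflect how much these samples vary, and some of that variation may be technical. The comparisons ask whether each treatment, and the 2 drugs together, changed RNA levels.

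Mitosis is driven by Cdk1 with its A and B cyclins, and by the Aurora and Polo-like kinases. These kinases build the spindle, a bipolar array of microtubules that motor proteins of the kinesin family slide and shorten. Chromosomes attach to it at kinetochores, protein plates built on centromeres, and a checkpoint holds the ubiquitin ligase APC/C inactive until all are attached. APC/C with Cdc20 then marks cyclin B for destruction, the sister chromatids part and cytokinesis divides the cell. Most of these genes are transcribed late in the cell cycle, so their level in a tissue is widely read as a sign of dividing cells. In stratified oral epithelium such cells lie mainly in the basal layer. In bulk samples, fewer dividing cells and less RNA per dividing cell cannot be told apart.

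Promoters of late cell cycle genes are known for CCAAT boxes and for a short element called CHR. The 250 bases upstream of the RefSeq start (build GRCm38.p6) were searched on both strands for CHR as TTTGAA or TTCGAA and for CCAAT, and 36 of the 41 genes had an entry in the table. Aurkb, Ccna2, Dlgap5, Kif20a and Tpx2 were not matched. A CHR was found in 14 of the 36 (38.889%), against 19.552% of the 27025 genes in the table. A CCAAT was found in 28 (77.778%), against 37.495%, and at least 2 of them in 18 (50%), against 11.508%. Both motifs were found in 12 (33.333%), against 7.001% of all genes. The median GC content was 59.1% in the promoters of the 36 and 52.4% in all. A gene counted if any of its listed starts held the motif. On a list of other mitotic genes (77 matched) 40.26% held a CHR, 51.948% a CCAAT and 25.974% both. On a list of DNA replication genes (35 matched) these were 20%, 60% and 14.286%. The following 6 promoters belong to the members with the smallest p between regorafenib and vehicle that hold both motifs. Each run is the last 120 bases before the start, 5′ to 3′ on the gene's strand, with the motifs in capitals (on the opposite strand CHR reads TTCAAA or TTCGAA and CCAAT reads ATTGG).

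Cdc20: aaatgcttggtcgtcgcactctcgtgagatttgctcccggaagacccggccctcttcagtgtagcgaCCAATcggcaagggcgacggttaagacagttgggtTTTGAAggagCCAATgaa
Cdk1: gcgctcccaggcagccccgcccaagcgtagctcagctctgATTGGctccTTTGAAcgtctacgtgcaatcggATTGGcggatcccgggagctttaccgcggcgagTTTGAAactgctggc
Top2a: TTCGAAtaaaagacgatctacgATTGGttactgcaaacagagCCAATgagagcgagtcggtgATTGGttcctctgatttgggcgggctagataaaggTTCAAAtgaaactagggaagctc
Ncapg: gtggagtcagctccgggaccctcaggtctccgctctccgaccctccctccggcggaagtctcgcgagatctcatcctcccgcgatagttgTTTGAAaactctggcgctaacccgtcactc
Prc1: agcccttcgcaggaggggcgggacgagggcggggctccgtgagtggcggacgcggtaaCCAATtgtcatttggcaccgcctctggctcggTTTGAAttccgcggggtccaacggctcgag
Ckap2: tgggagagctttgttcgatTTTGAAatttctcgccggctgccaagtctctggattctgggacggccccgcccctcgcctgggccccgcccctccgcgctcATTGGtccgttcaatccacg

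These stretches lie at chr4:118437344-118437463 (Cdc20, minus strand), chr10:69352913-69353032 (Cdk1, minus), chr11:99024190-99024309 (Top2a, minus), chr5:45669805-45669924 (Ncapg, plus), chr7:80294356-80294475 (Prc1, plus) and chr8:22185820-22185939 (Ckap2, minus). In Cdc20, Cdk1 and Top2a a CHR stands within 23 bases of the start, with CCAAT boxes on the same stretch. The CCAAT of Ncapg lies 176 bases upstream, outside the printed run. Another listed start of Prc1, not printed, held CCAAT without CHR. In Aurka, Plk1 and Cdca8 CCAAT was found and CHR was not. In Birc5 neither was found. The bases after the listed starts of Aurka and Birc5 were not found in an annotated transcript of the gene. In Cep55 a listed start held CHR 33 bases upstream, and another listed start held neither motif. A match is a run of letters, not a measured site.

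The smallest library (combination 2) held 16776177 counts and the largest (vehicle 1) 24969492. Single members had 73 to 3022 counts per library. Levels are CPM, a gene's counts in 1000000 of its library, after scaling of the libraries by the trimmed mean of M values (TMM). Keratinocyte markers were present: the 10 basal keratinocyte genes summed to between 5960 and 11400 CPM and the 11 suprabasal ones to between 48300 and 68200. These lists do not separate carcinoma from normal epithelium. RNA of other tissue was present as well. The 15 skeletal muscle genes summed to between 30300 and 62700 CPM and the 12 salivary gland genes to between 38.8 and 19400. The 9 stomach genes summed to between 0.397 and 1090 CPM. In anti-PD1 1, which had the highest stomach sum, Tff2 alone stood at 1087 CPM and Pgc at 0. In vehicle, the stomach genes Atp4b and Gif had 0 counts in all 4 libraries. For the mitotic genes anti-CD40 3 had the highest level of its group for all 41 genes and the highest of all 19 libraries for 17. Vehicle 3 was highest of its group for 26 and anti-PD1 3 for 35.

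Per kilobase of exon, Cdc20 had the highest mean level of the 41 in vehicle (13.6 CPM per kb), followed by the proliferation antigen Mki67 (9.21) and the topoisomerase Top2a (8.66), and Ndc80 had the lowest (0.782). The 41 genes varied together across the 19 libraries. Pearson's r of log2 CPM between members had a median of 0.712 over the 820 pairs, from 0.158 to 0.942 (Ckap2 with Tpx2, both microtubule proteins of the spindle), and it was above 0 in all 820. With group means removed the median was 0.70, so the members also moved together within groups. These r values describe libraries that share depth and tissue content, and no such value over all tested genes is given beside them. Ndc80, a subunit of the complex that grips microtubules at the kinetochore, was least like the others (median r 0.433), and Tpx2, the activator of Aurora A, was most like them (0.798). Of the 100 tested genes most like the mean of the 41, 35 were members, 27 stood on a list of 94 other mitotic genes and 1 on a list of 41 DNA replication genes. Each member is part of this mean, so the place of the members was partly fixed in advance. Among all 16909 tested genes were 41 members, 93 of the other mitotic genes and 41 replication genes. Outside the mitotic lists the nearest were the histone gene H3f3b (r 0.923 over 19 libraries), Cip2a (0.897), Trim59 (0.895), Gpsm2 (0.87), Dbf4 (0.864), Ptma (0.863), Hmgb2 (0.855) and Smarcd2 (0.855).

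**Figure D1:**
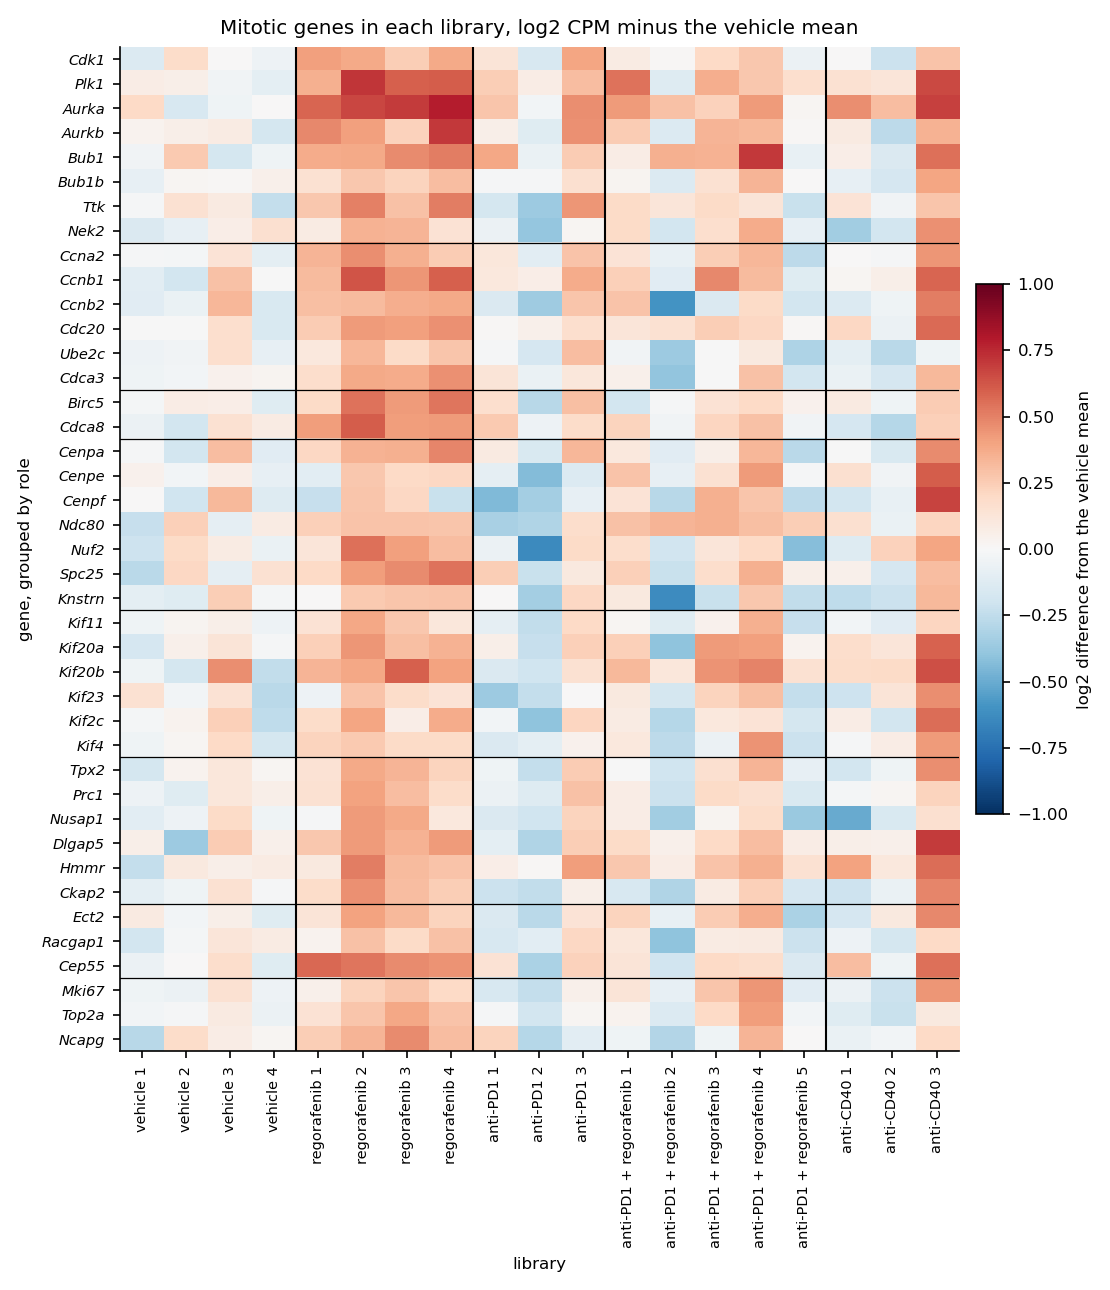
Each of the 41 mitotic genes (rows, grouped by role) in each of the 19 libraries (columns), as log2 CPM minus the gene's mean in vehicle. The 4 regorafenib libraries are red for most genes, with library medians of 0.193 to 0.388. Anti-CD40 3 is red at a median of 0.441 beside the other anti-CD40 libraries near 0. Combination 4 (median 0.303), anti-PD1 3 (0.207), combination 3 (0.191), combination 1 (0.126) and vehicle 3 (0.113) are also red for most genes.

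The summed level of the 41 genes had its highest group mean in regorafenib. It was 720 CPM ± 45.9 (SD, n = 4) in vehicle, with libraries between 693 and 788. It was 879 ± 52.5 (n = 4) in regorafenib, between 805 and 928, above every vehicle library. Anti-PD1 stood at 713 ± 88.3 (n = 3), the combination at 762 ± 105 (n = 5) and anti-CD40 at 771 ± 146 (n = 3). The libraries of these 3 groups overlapped those of vehicle and also those of regorafenib. Anti-PD1 3 (806.3), combination 3 (820), combination 4 (897.4) and anti-CD40 3 (938.4, the highest of all 19) were above regorafenib 1 (805.2). Regorafenib had the highest group mean for 36 of the 41 genes, anti-CD40 for 4 and the combination for 1. Vehicle had the lowest for 18 and anti-PD1 for 15. Within groups the order of libraries was shared by many genes: regorafenib 1 was lowest of its group for 34, anti-PD1 2 for 34 and combination 2 for 24, while combination 4 was highest of its group for 28.

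Between regorafenib and vehicle, 6 of the 41 genes rose and none fell at an adjusted p under 0.05 (14.6%, beside 6.32% of all 16909 genes called and 3.32% called higher). They were Aurka, Plk1, Cdca8, Cdc20, Cep55 and Birc5, from the spindle pole, the chromosomal passenger complex, the APC/C and the midbody. The test was edgeR's quasi-likelihood F test on 1 fit of all 19 libraries, with p adjusted by Benjamini and Hochberg over all tested genes. The fitted log2 difference was above 0 for 41 of 41 genes (50.3% of all genes), with a median of 0.33 beside 0.00 for all genes. Of the 41, 24 had every regorafenib library above every vehicle library (8.63% of all genes), and 25 had an unadjusted p under 0.05 (24.5% of all genes).

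Of the 8 mitotic kinases and checkpoint genes, 2 rose, with a median log2 difference of 0.41 over the 8. Aurka (ENSMUSG00000027496.15, GRCm38 chromosome 2 from 172356190 to 172370535, minus strand) encodes Aurora A, the kinase of centrosomes and spindle poles. Its levels in vehicle were 6.59, 5.14, 5.59 and 5.76 CPM. In regorafenib they were 8.6, 9.13, 9.35 and 9.93 CPM. Every regorafenib library was above every vehicle library, with a mean of 9.25 ± 0.55 (SD, n = 4) against 5.77 ± 0.607 (n = 4), a log2 difference of 0.68 ± 0.12 (SE; adjusted p = 0.00656). Aurka kept an adjusted p under 0.05 in all 19 fits that each left out 1 library, between 0.00445 and 0.0283.

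Plk1 (ENSMUSG00000030867.7, chromosome 7 from 122159439 to 122169873, plus strand) encodes Polo-like kinase, which acts at centrosomes and kinetochores. Its levels were 9.45, 9.37, 8.79 and 8.4 CPM in vehicle. In regorafenib they were 11.5, 14.8, 13.6 and 13.7 CPM. The groups did not overlap, and the log2 difference was 0.57 ± 0.13 (adjusted p = 0.0198). The other 6 genes of this role were Aurkb, Bub1, Bub1b, Ttk, Cdk1 and Nek2. Aurkb, the kinase of the passenger complex, stood at 9.77, 9.98, 10.1 and 8.46 CPM in vehicle and at 13.3, 12.7, 11.2 and 15.6 in regorafenib, without overlap (log2 difference 0.46 ± 0.15, adjusted p = 0.0643). Cdk1 itself stood at 14.9, 18.5, 16.4 and 15.8 CPM in vehicle and at 21.7, 21.2, 19.4 and 21.2 in regorafenib, without overlap (0.35 ± 0.12, adjusted p = 0.0758). Neither passed the threshold. Bub1, Bub1b and Ttk, kinases of the spindle checkpoint, also did not overlap and did not pass, and for Nek2, a kinase of centrosome separation, the groups overlapped.

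Besides Aurkb the 41 genes hold Cdca8 and Birc5 of the chromosomal passenger complex, and both rose. This complex moves from centromeres to the midzone and corrects wrong attachments. Cdca8 (ENSMUSG00000028873.16, chromosome 4 from 124918465 to 124939311, minus strand), which encodes borealin, stood at 13.1, 12, 15.1 and 14.4 CPM in vehicle. In regorafenib it stood at 18.2, 20.6, 18.2 and 18.2 CPM, above every vehicle library (log2 difference 0.46 ± 0.11, adjusted p = 0.025). Birc5 (ENSMUSG00000017716.15, chromosome 11 from 117849251 to 117855743, plus strand) encodes survivin. It stood at 12, 12.8, 12.7 and 11.2 CPM in vehicle and at 13.9, 17.7, 16.3 and 17.6 in regorafenib, without overlap (0.43 ± 0.12, adjusted p = 0.0359).

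Of the 6 cyclins and ubiquitin ligase partners, 1 rose, with a median log2 difference of 0.35. Cdc20 (ENSMUSG00000006398.15, chromosome 4 from 118432901 to 118437352, minus strand), the activator of APC/C, stood at 25.1, 25.1, 28.3 and 22.7 CPM in vehicle. In regorafenib it stood at 30.2, 34, 33.5 and 34.7 CPM, above every vehicle library (0.39 ± 0.10, adjusted p = 0.0316). An exon of Cdc20 overlaps one of Elovl1, a fatty acid elongase gene on the opposite strand, and the strand setting of the counting is not given in the sources used here. Elovl1 stood between 254 and 292 CPM in vehicle and between 321 and 330 in regorafenib, and its part in the Cdc20 value was not tested. Ccnb1, cyclin B1, stood at 18.1, 17.2, 23.8 and 19.4 CPM in vehicle and at 24.3, 30.2, 26.4 and 29.5 in regorafenib. Its groups did not overlap, and it did not pass (0.49 ± 0.15, adjusted p = 0.0542). Ccna2, cyclin A2, stood at 25.1, 25, 27.9 and 23.7 CPM against 32.1, 34.9, 32.5 and 30.3 (0.35 ± 0.12, adjusted p = 0.0857). Cdca3, a protein of mitotic entry, stood at 14.9, 15.1, 15.8 and 15.7 CPM against 17.4, 20, 19.9 and 21.1 (0.35 ± 0.12, adjusted p = 0.0873). For Ccnb2 and the E2 enzyme Ube2c the groups overlapped.

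Of the 3 cytokinesis genes, 1 rose. Cep55 (ENSMUSG00000024989.15, chromosome 19 from 38055011 to 38074423, plus strand) marks the midbody and recruits the machinery that severs the last bridge between daughter cells. Its levels were 7.07, 7.41, 8.31 and 6.8 CPM in vehicle. In regorafenib they were 11, 10.7, 10.2 and 10.1 CPM, above every vehicle library (0.51 ± 0.13, adjusted p = 0.0342). Ect2, which activates the small GTPase RhoA for the contractile ring, did not overlap and did not pass, and for Racgap1 the groups overlapped.

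None of the 7 centromere and kinetochore genes passed, and for 6 of the 7 the groups overlapped. Their log2 differences ran from 0.01 for Cenpf to 0.41 for Spc25, with a median of 0.27, and 3 had an unadjusted p under 0.05. Ndc80 was the member whose groups did not overlap. Its levels were 4.29, 5.95, 4.74 and 5.34 CPM in vehicle and 5.96, 6.16, 6.14 and 6.12 in regorafenib (0.26 ± 0.12, adjusted p = 0.182). Cenpf, a large kinetochore protein, stood at 21.8, 19, 27.3 and 20 CPM in vehicle and at 18.6, 26.5, 25.1 and 18.7 in regorafenib, so its groups lay over each other (95% interval of the difference -0.41 to 0.43). For Cenpe, the kinesin that carries chromosomes to the equator, the levels were 15.3, 14.6, 15.6 and 14.1 CPM in vehicle and 13.8, 18, 17.1 and 17.2 in regorafenib (0.15 ± 0.13, adjusted p = 0.515).

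None of the motor, microtubule and chromosome structure genes passed. The 6 kinesins had log2 differences of 0.14 (Kif23, of the midzone complex) to 0.41 (Kif20b), with a median of 0.24, and 2 of the 6 did not overlap. These 2 were Kif11, the motor that pushes spindle poles apart, and Kif20a. The 6 spindle microtubule proteins (Tpx2, Prc1, Nusap1, Dlgap5, Hmmr and Ckap2) lay between 0.23 and 0.35, with a median of 0.29, and 4 of the 6 did not overlap. Of the 3 chromosome structure genes, Top2a, which untangles sister DNA, stood at 76.6, 77.5, 83.1 and 75 CPM in vehicle and at 86.2, 94.8, 102 and 95 in regorafenib, without overlap (0.28 ± 0.10, adjusted p = 0.0926). Mki67, which coats mitotic chromosomes, stood at 89.7, 89, 103 and 89.3 CPM against 96, 108, 112 and 106, with vehicle 3 above regorafenib 1 (0.19 ± 0.13, adjusted p = 0.393).

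**Figure D2:**
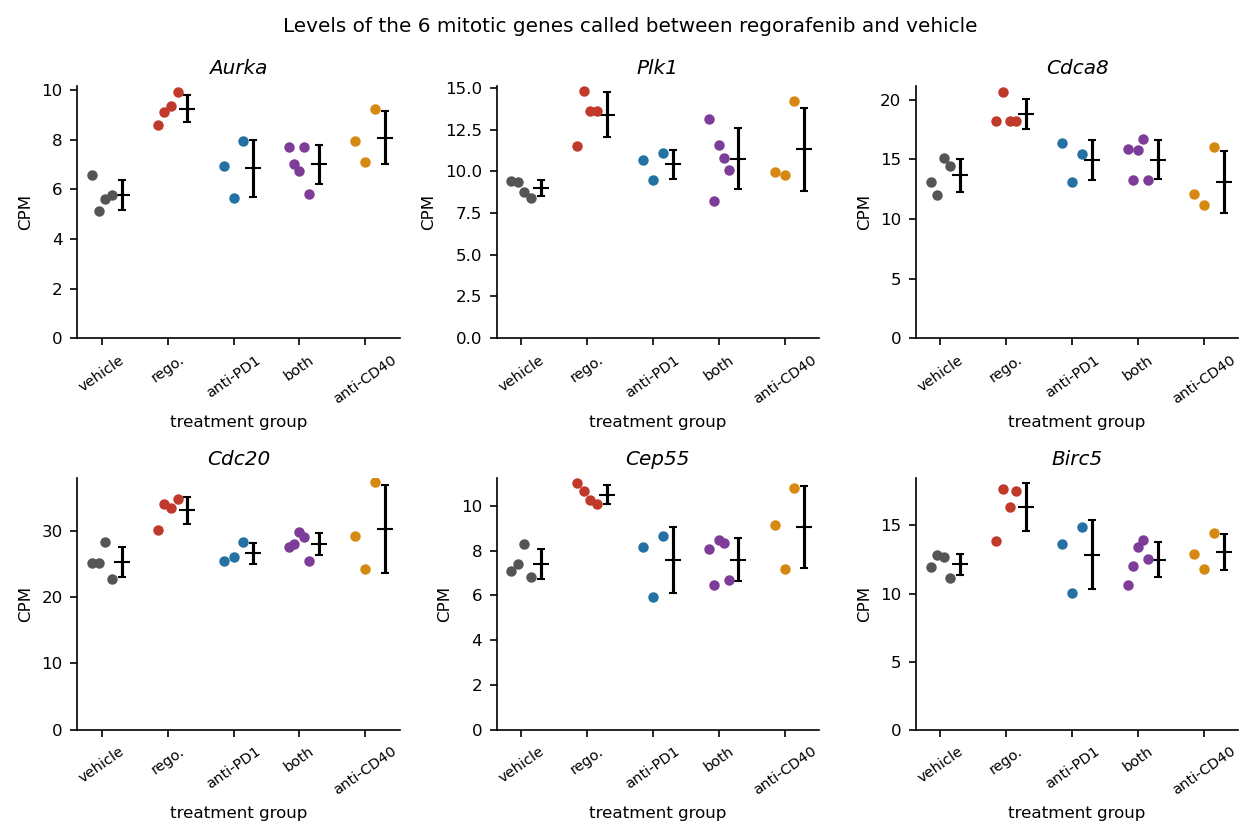
Levels in CPM (y axes, from 0) of the 6 genes called between regorafenib and vehicle, by treatment group (x axes: rego. is regorafenib, both is the combination). Points are libraries and bars are mean ± SD. In each panel the 4 regorafenib points lie above the 4 vehicle points.

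Among the members, shorter genes tended to have larger differences. The same trend over all tested genes is not given here. Across the 41 genes, Pearson's r between log2 exon length and the log2 difference was -0.608 and Spearman's rho was -0.542, given as a description, since the genes share the same 8 libraries. The 20 longer genes had a median difference of 0.27 and the other 21 a median of 0.35. Cenpf was the longest, with 15433 bases of exon, and it had the smallest difference. With offsets for length and GC content fitted over all genes the r was -0.43, the median difference 0.31, and 5 members were called in place of 6.

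**Figure D3:**
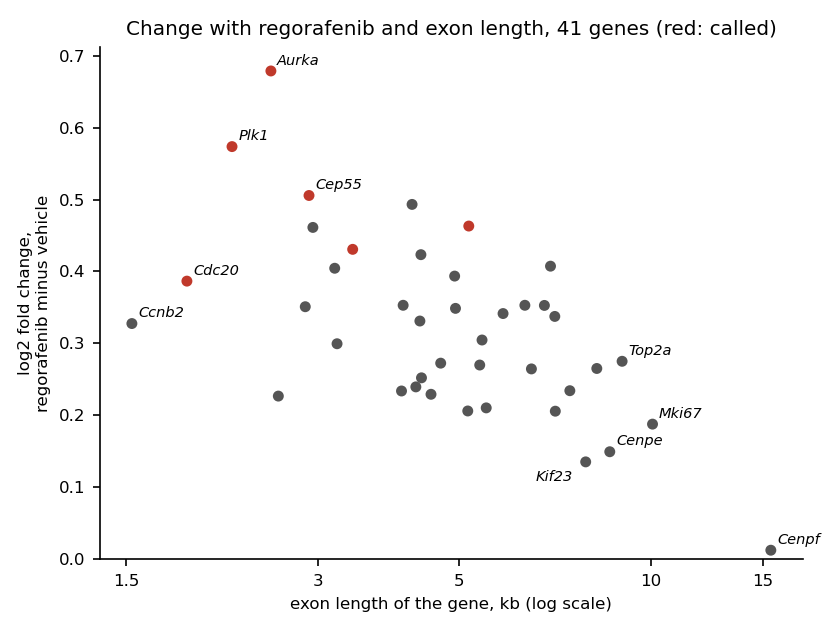
Exon length in kb (x axis, log scale) and log2 difference between regorafenib and vehicle (y axis) for the 41 genes, with the 6 called genes in red. Cenpf, with 15433 bases, lies lowest at 0.01, and Aurka and Plk1 are short and lie high. Short genes also lie lower, as Ccnb2 (1531 bases, the shortest) at 0.33 and Ube2c (2600 bases) at 0.23.

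Markers of tissue composition differed between the same libraries. Skeletal muscle genes summed to between 45900 and 53600 CPM in vehicle and between 30300 and 38600 in regorafenib, without overlap, and 6 of the 15 fell while none rose. Basal keratinocyte genes summed to between 5960 and 7650 CPM in vehicle and between 8270 and 11400 in regorafenib, without overlap, and 3 of the 10 rose and 1 fell. T and NK cell genes summed to between 5.4 and 7.96 CPM in vehicle and between 8.77 and 14.2 in regorafenib, and 4 of the 10 tested rose. Erythroid genes summed to between 82.4 and 105 CPM against 113 to 222, with 1 of 5 tested called. Stomach genes summed to between 0.397 and 288 CPM against 82.7 to 554, and 6 of the 8 tested rose. In vehicle 2, at the top of the vehicle range, Tff2 alone stood at 286 CPM, and its levels overlapped between the groups. Pgc stood at 0 to 0.119 CPM in vehicle and at 5.46 to 51.9 in regorafenib. Gkn1 stood at 0 to 0.0533 CPM against 0.394 to 24.6. Of 8 macrophage genes 1 fell (Cd163, log2 difference -0.99, adjusted p = 0.00656) and 7 were below 0, with sums of 103 to 141 CPM in vehicle and 90 to 108 in regorafenib. Of 7 fibroblast genes 1 fell (Dcn, log2 difference -0.43) and 7 were below 0, with sums of 708 to 909 against 595 to 720. Of 6 endothelial genes none passed and 6 were below 0, with sums of 213 to 308 against 209 to 246. With the muscle score as a covariate, the median difference of the 41 genes was 0.17, 38 were above 0 and none was called, Aurka included. With the basal keratinocyte score it was 0.20, 40 were above 0 and none was called. The median SE was 0.134 without a covariate, 0.149 with the muscle score and 0.166 with the basal keratinocyte score. The summed levels of both marker lists do not overlap between the groups. The scores are means of log2 CPM over the same genes, and their own overlap was not examined. Tissue content and treatment cannot be told apart. The parts of T cell, macrophage, fibroblast, endothelial, erythroid and stomach RNA in the differences were not tested.

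**Figure D4:**
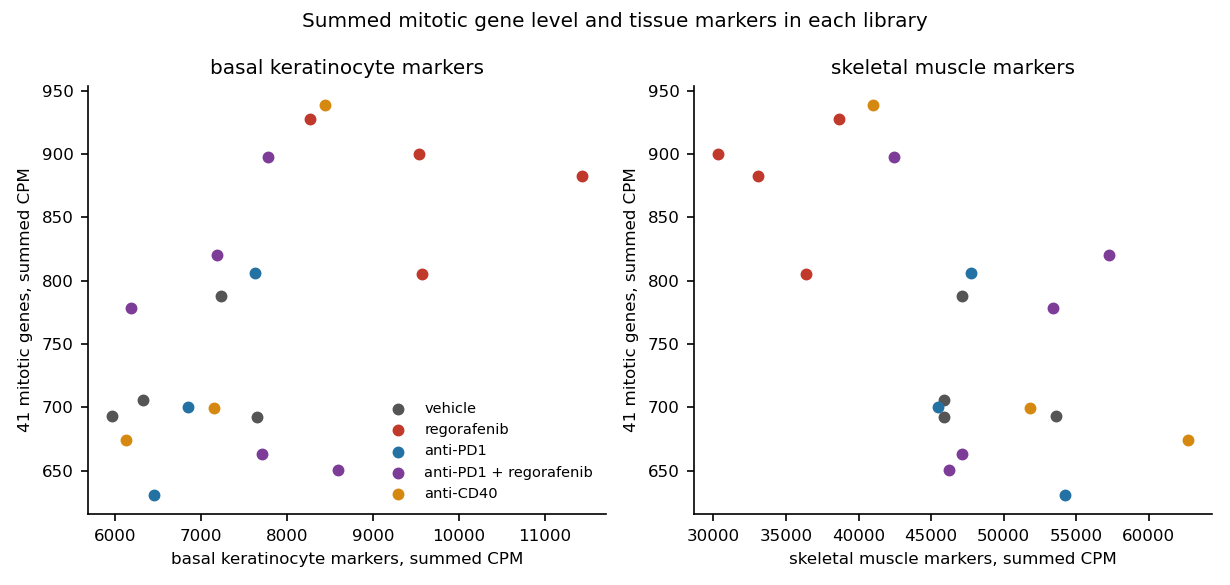
Summed CPM of the 41 mitotic genes (y axes) against the summed CPM of 10 basal keratinocyte markers (left) and 15 skeletal muscle markers (right), 1 point per library. The regorafenib points lie at 805 to 928 on the y axes, at the highest keratinocyte values but for an overlap with other groups at 8270 to 8590, and at the lowest muscle values.

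The calls depended on single libraries. Without vehicle 4 or without regorafenib 4, 1 of the 41 genes was called. Without vehicle 1 or regorafenib 2 it was 2 and without regorafenib 3 it was 3, while leaving out any other single library gave 4 to 9. A fit of only the 8 libraries compared called 14, DESeq2 called 9, and a fit with the number in the deposited column name as a block called 0. The number 7 was held by vehicle 4 alone, so that block takes this library out of the comparison.

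Genes upstream of mitosis and around it were followed through lists. Of 93 tested other mitotic genes, 9 rose and none fell between regorafenib and vehicle, with a median log2 difference of 0.27. The smallest p values belonged to Kpna2, a nuclear import receptor (62.9 CPM in vehicle and 79.3 in regorafenib on average, log2 difference 0.33), Gtse1, a microtubule and p53 regulator (7.8 and 10.3, 0.40), and Wee1, the kinase that holds Cdk1 inactive (9.28 and 12.3, 0.40). Of 41 replication genes, 10 rose and none fell, with a median of 0.31. Mcm5, Mcm2 and Mcm4, subunits of the helicase that opens DNA in S phase, had the smallest p values, with log2 differences of 0.73, 0.60 and 0.49. Of 21 regulators of the mitotic gene programme, such as E2F and pocket protein genes, 1 rose, Rbl1, a pocket protein (20.3 CPM in vehicle and 25.3 in regorafenib, 0.31, adjusted p = 0.0486), and the median was 0.08. Of 19 cyclins, kinases and inhibitors of G1, 2 rose: Cdk4 (75.3 and 92.7 CPM, 0.30) and Ccne1, the cyclin partner of Cdk2 (3.96 and 8.55 CPM, 1.10). The background for these counts is the same 3.32% called higher.

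Between the combination and regorafenib alone, 5 of the 41 genes were lower in the combination and none was higher at an adjusted p under 0.05 (12.2%, beside 10.5% of all genes called and 4.79% called lower). The 5 were Cep55, Birc5, Aurka, Cdca3 and Ube2c. The difference was below 0 for 38 of 41 genes (51.1% of all genes), with a median of -0.26 beside -0.01 for all genes. In 7 genes every combination library was below every regorafenib library (6.74% of all genes), and 21 had an unadjusted p under 0.05 (28.1%). The comparison uses the same 4 regorafenib libraries as the one with vehicle, so values are given side by side only.

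Aurka stood at 7.71, 7.04, 6.74, 7.7 and 5.83 CPM in the 5 combination libraries, all below the lowest regorafenib library (log2 difference -0.40 ± 0.11, adjusted p = 0.0334). Cep55 stood at 8.05, 6.45, 8.47, 8.33 and 6.68 CPM, also without overlap (-0.47 ± 0.13, adjusted p = 0.0278). Birc5 stood at 10.7, 12, 13.4, 13.9 and 12.5 CPM and met the regorafenib range at 13.9 (-0.39 ± 0.11, adjusted p = 0.0321). Cdca3 stood at 15.9, 11.7, 15.3, 18.9 and 13.6 CPM, with combination 4 inside the regorafenib range (-0.38 ± 0.12, adjusted p = 0.0434). Ube2c, the E2 enzyme of APC/C, stood at 18, 14.3, 18.4, 19.7 and 14.9 CPM against 19.8, 23.3, 21.1 and 22.3 in regorafenib, without overlap (-0.34 ± 0.11, adjusted p = 0.0455). An exon of Ube2c overlaps the muscle troponin gene Tnnc2 on the opposite strand, which stood between 1200 and 1790 CPM in the combination and between 1030 and 1500 in regorafenib, and its part in the Ube2c value was not tested. Plk1 (-0.31), Cdca8 (-0.33) and Cdc20 (-0.24) did not pass. The 3 genes with a difference above 0 were Cenpe, Cenpf and Ndc80, all of the kinetochore, at 0.02, 0.05 and 0.03.

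Between these groups the muscle genes summed to 42400 to 57300 CPM in the combination, above all regorafenib libraries, with 8 of 15 called higher in the combination. Basal keratinocyte genes summed to 6180 to 8590 CPM, with 2 of 10 called lower and 1 higher. With the muscle score as a covariate the median difference of the 41 genes was -0.08 and none was called, and with the basal keratinocyte score it was -0.17 and none was called. None of the 41 was called without regorafenib 2, regorafenib 3 or regorafenib 4, 1 was called without combination 1, 2, 3 or 5, 2 were called without regorafenib 1, and 9 without combination 4. Without vehicle 1 or anti-CD40 1, libraries outside the comparison, 3 were called, and without anti-CD40 3 it was 8. Of the other lists, 8 of 93 other mitotic genes fell and none rose. The smallest p values were those of Gtse1 (log2 difference -0.53), Kpna2 (-0.31) and Ube2s (-0.27), and among the 8 Cdkn3 had the most negative difference (-0.605). Of the replication genes, 1 of 41 fell, Dbf4, the partner of the S phase kinase Cdc7 (-0.33).

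**Figure D5:**
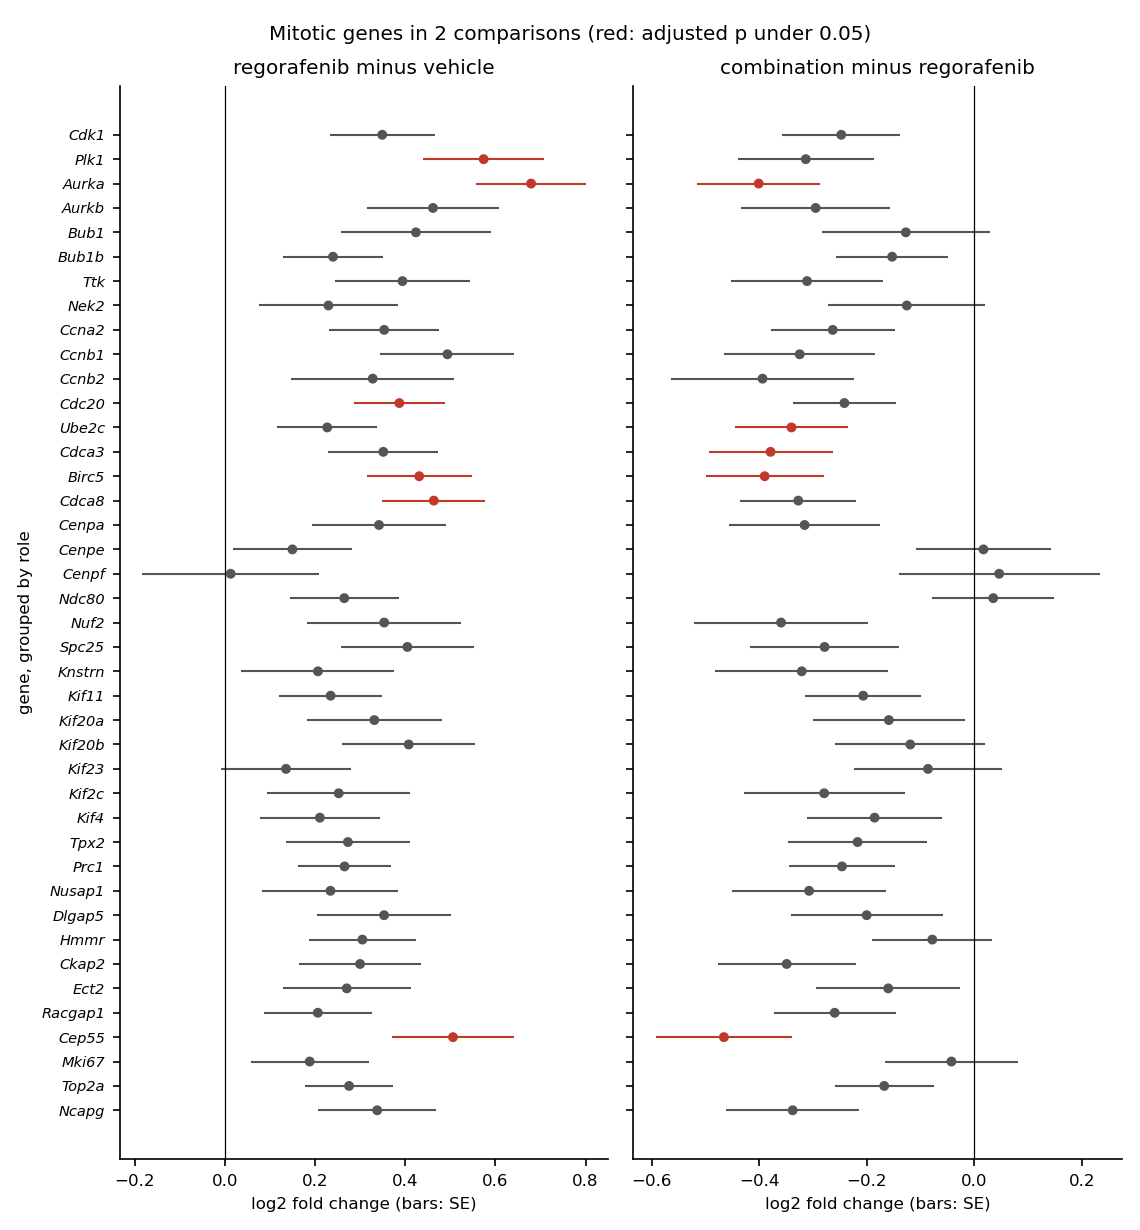
Log2 differences (x axes) of the 41 genes between regorafenib and vehicle (left) and between the combination and regorafenib (right), with bars of 1 SE and genes grouped by role (y axis). Genes called at an adjusted p under 0.05 are red, 6 on the left and 5 on the right, and the 2 panels share the regorafenib libraries.

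Against anti-PD1 alone, regorafenib was higher for 41 of 41 genes (50.8% of all genes), with a median log2 difference of 0.31. Only Aurka passed (2.44%, beside 8.34% of all genes called and 4.16% called higher), and 16 genes did not overlap (13.6% of all genes). At an unadjusted p under 0.05 there were 22 of 41 (28.2% of all genes). Aurka stood at 6.95, 5.65 and 7.94 CPM in anti-PD1 (0.43 ± 0.13, adjusted p = 0.0489), and it passed in 5 of the 19 fits that left out 1 library, with adjusted p up to 0.202. Cep55 stood at 8.17, 5.92 and 8.66 CPM, below all regorafenib libraries, and did not pass (0.47 ± 0.15, adjusted p = 0.0534). The number of members called ran from 0 to 7 over the fits without 1 library. Muscle genes summed to 45500 to 54300 CPM in anti-PD1 and 30300 to 38600 in regorafenib. Basal keratinocyte genes summed to 6450 to 7630 CPM in anti-PD1 and 8270 to 11400 in regorafenib. The median difference of the 41 genes was 0.178 with the muscle score as a covariate and 0.201 with the basal keratinocyte score. With either score 0 members were called.

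No mitotic gene was called between anti-PD1 and vehicle. By edgeR 0 of the 41 were called, as were 0% of all genes, and DESeq2 called 0 of the 41. At an unadjusted p under 0.05 there were 0 of 41 (9.32% of all genes). The differences were above 0 for 21 genes and below 0 for 20, with a median of 0.00 and a range of -0.29 to 0.25. Aurka had the smallest p (0.25 ± 0.13, 95% interval -0.04 to 0.53, adjusted p = 0.582). In 1 of the 41 genes, Plk1, all 3 anti-PD1 libraries were above all 4 of vehicle (4.59% of all genes), at 10.7, 9.47 and 11.1 CPM against a vehicle maximum of 9.45. In 1, Cenpe, at 14, 11 and 13.6 CPM in anti-PD1, all 3 were below all 4 of vehicle (4.64% of all genes; -0.21 ± 0.14, 95% interval -0.52 to 0.10, adjusted p = 0.678).

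The combination against vehicle gave 0 of 41 called by edgeR (0.0237% of all genes) and 0 by DESeq2, with 2 at an unadjusted p under 0.05 (10.8% of all genes). The median log2 difference was 0.09, and 31 of 41 were above 0 (53.3% of all genes). Ndc80 stood at 6.19, 6.39, 6.46, 6.21 and 5.98 CPM in the combination, above every vehicle library (0.30 ± 0.11, adjusted p = 0.357), and Aurka overlapped vehicle (0.28 ± 0.12, adjusted p = 0.398). Against anti-PD1 the combination also gave 0 of 41 by both tools (0.00591% of all genes by edgeR), with 3 at an unadjusted p under 0.05 (9.94%), a median of 0.05 and 29 of 41 above 0 (49.1% of all genes). The smallest p there were those of Ndc80, at 4.03, 4.1 and 5.7 CPM in anti-PD1 (0.43 ± 0.13, adjusted p = 0.212), and of Cenpe, at 18.1, 14.1, 16.5, 20 and 14.8 CPM in the combination (0.38 ± 0.14, adjusted p = 0.331). In both genes no combination library was below an anti-PD1 library.

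Anti-CD40 against vehicle gave 0 of 41 called by edgeR (0% of all genes) and 0 by DESeq2, with 4 at an unadjusted p under 0.05 (6.06% of all genes), which were Aurka, Hmmr, Cdc20 and Plk1. The median log2 difference was 0.12, and 35 of 41 were above 0 (53.6% of all genes). The libraries differed in this: their median log2 differences from the vehicle mean over the 41 genes were -0.00978, -0.0602 and 0.441, the last in anti-CD40 3, and their summed levels were 699.6, 673.8 and 938.4 CPM beside the vehicle mean of 720. Aurka stood at 7.94, 7.1 and 9.23 CPM, above every vehicle library (0.49 ± 0.13, adjusted p = 0.76). Hmmr, a spindle protein that also binds hyaluronan, stood at 13.8, 11.3 and 15.4 CPM against 8.9, 11.2, 10.9 and 11 in vehicle (0.36 ± 0.13, adjusted p = 0.814). No member was called without anti-CD40 3 either.

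The interaction term asks whether the combination differs from the sum, on the log2 scale, of both single drugs. By edgeR 0 of 41 passed (0.627% of all genes) and by DESeq2 1 passed, with 12 at an unadjusted p under 0.05 (15.8% of all genes). The term was below 0 for 35 of 41 (50.7% of all genes), with a median of -0.28. Aurka had the smallest p (-0.65 ± 0.17, adjusted p = 0.0838), followed by Birc5 (-0.47 ± 0.17, adjusted p = 0.167). In the test for any difference among the 5 groups, 1 of 41 passed (2.44%, beside 4.49% of all genes), with 13 at an unadjusted p under 0.05 (25.9% of all genes). It was Aurka (adjusted p = 0.0279), and Cdca8 was next (adjusted p = 0.0532).

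Exons of 13 of the 41 genes overlap an exon of another gene in GENCODE M21, 12 of them on the opposite strand. Besides Cdc20 and Ube2c, they include Plk1 (with Gm44985, at 0 to 10.9 CPM), Cdca8 (with 9930104L06Rik, at 12.7 to 15.5 CPM) and Ccna2 (with Exosc9, at 24 to 30.2 CPM). Ccnb1, Ccnb2 and Kif4 have named pseudogene copies. Reads of these genes may have been split or added by the counting, and their values are uncertain to that extent.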

How the data were processed

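Per the labels' protocols, RNA came from a combined DNA and RNA extraction, and the library kit is stranded and selects poly(A) mRNA. The submitters' processing notes name cutadapt 2.4, STAR 2.7.2a and GRCm38. How reads were assigned to genes (program, strand setting, annotation) is not given in the sources used here. The authors' deposited table holds raw counts of 55487 genes in 19 columns. GENCODE M21 gave symbols for 55227 IDs (54435 with the version) and none for 260, and gave whole-gene, 1-based coordinates.

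edgeR 4.0.16 in R 4.3.3 was used with filterByExpr by group (16909 genes, 99.92% of counts), TMM scaling and a robust quasi-likelihood fit of 5 group means over 19 libraries (14 residual degrees of freedom, common dispersion 0.0345). P-values are two-sided, adjusted over all tested genes in each of 9 tests, with a threshold of 0.05. The SE is the absolute log2 difference over the square root of F, and 95% intervals use 14 degrees of freedom. Intervals cover the spread between these libraries only. Each result was also computed with DESeq2 1.42.0, without a filter, with RLE scaling, on only the groups compared, with replicate blocks, with length and GC offsets, with covariates of muscle, salivary gland and basal keratinocyte scores, with each library left out and, added after seeing the data, the fit without its robust option. Scripts were tested on simulated data. The smallest chi-square between a pair of libraries, divided by its degrees of freedom, was 11.8, so none was counted as a repeat of another.

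The members, gene lists and tests were chosen with earlier results of these data known. Values per library are given for the 12 members with the smallest p between regorafenib and vehicle, the 2 with the smallest p in each other test, and those passing in any test. Cenpf, Mki67 and Cdkn3 were named after their values were seen. Of each other list up to 3 genes with the smallest p are named, and the 8 genes most like the members' mean by Pearson's r. Promoter sequences are RefSeq's, of GRCm38.p6. Figures were drawn with matplotlib 3.10.9.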

Additional observations from a re-analysis of the deposited data

Results flagged for a closer look

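Single libraries were checked against the rest of their group for each of the 41 mitotic genes and for their sum, in the groups of 4 or 5 libraries. Of 126 such checks, 7 gave a library farther from the others than Dixon's 95% criterion allows, and chance alone gives about 1 in 20, or 6.3. Vehicle 3 was high in 3 of them. Its summed CPM of the 41 genes was 788 against 693 to 706 in the other vehicle libraries, Mki67 stood at 103 CPM against 89 to 89.7, and the cyclin Ccnb2 at 12.4 CPM against 8.87 to 9.42. In vehicle 1 the spindle protein Hmmr stood at 8.9 CPM against 10.9 to 11.2. In regorafenib 2 Cdca8 stood at 20.6 CPM against 18.2 in each of the others. In regorafenib 1 the kinetochore protein Knstrn stood at 12.6 CPM against 15 to 15.2. In combination 5 the checkpoint kinase Ttk stood at 5.13 CPM against 6.5 to 6.85.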

How the results depend on the processing

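The members had at least 73 counts in every library. Counting error was not separated from the spread between libraries. Of 899 single-gene alternatives, 725 kept side and direction, 135 lost a call, 39 gained one and none reversed. The number of the 41 mitotic genes called between regorafenib and vehicle (6) became 14 with only the groups compared and 13 with the salivary gland covariate, and 0 with the muscle covariate, the basal keratinocyte covariate or a block by column number. It ran from 1 to 9 with 1 library left out. Between the combination and regorafenib (5) it became 2 without a filter, 3 with length and GC offsets, and 0 with the muscle or basal keratinocyte covariate, and ran from 0 to 9 with 1 library left out. Between regorafenib and anti-PD1 (1) it became 6 by DESeq2, 5 with only the groups compared, 3 with the salivary gland covariate, and 0 without a filter, with the muscle or basal keratinocyte covariate or without the robust option, and ran from 0 to 7. In the interaction (0) it was 1 by DESeq2 and 1 with the salivary gland covariate, and ran from 0 to 1. Among the 5 groups (1) it was 2 without a filter, 7 by DESeq2, 3 with the salivary gland covariate and 0 with the muscle or basal keratinocyte covariate, and ran from 0 to 6. In the other 4 comparisons it was 0 under every alternative run.

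The number of all genes called moved as follows. DESeq2 called 1684 for regorafenib against vehicle (1069 by edgeR), 80 for anti-PD1 (0), 124 for the combination (4) and 5 for anti-CD40 (0). It called 110 for the combination against anti-PD1 (1), 2292 for regorafenib against anti-PD1 (1410), 582 for the interaction (106) and 2519 among the 5 groups (760). Without a filter there were 3 for anti-PD1, 1 for anti-CD40, 1094 for the combination against regorafenib (1768), 10 for the combination against anti-PD1 and 792 for regorafenib against anti-PD1. With the muscle covariate there were 54 for regorafenib against vehicle, 11 for the combination against vehicle, 4 for the combination against regorafenib, 15 for the combination against anti-PD1, 3 for regorafenib against anti-PD1, 26 for the interaction and 38 among the 5 groups. With the basal keratinocyte covariate these were 12, 12, 137, no change beyond 1.5 times, 3, 21 and 34. With the salivary gland covariate there were 8 for the combination against anti-PD1, 292 for the interaction and 1214 among the 5 groups. With length and GC offsets there were 3 for the combination against anti-PD1 and 33 for the interaction. With only the groups compared there were 1 for the combination against vehicle and 164 for the interaction; among the 5 groups this is the same fit. RLE scaling gave 1 for anti-CD40, and the fit without the robust option, added after seeing the data, gave 1 for anti-PD1. With 1 library left out, all genes called ran from 269 to 1415 for regorafenib against vehicle, 0 to 2 for anti-PD1, 0 to 7 for the combination, 0 to 2 for anti-CD40, 484 to 2300 for the combination against regorafenib, 0 to 15 for the combination against anti-PD1, 20 to 2069 for regorafenib against anti-PD1, 11 to 178 for the interaction and 39 to 1924 among the 5 groups. The causes of these shifts were not tested.

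The labels do not say whether replicate numbers pair the libraries. Over 33 pairs with the same number in different groups, deviations from the group means correlated between -0.45 and 0.539 (median 0.0314). Over 110 pairs with other numbers they correlated between -0.706 and 0.625 (median -0.0646). For 6 of 19 libraries the best match in another group had their own number. Pairing itself was not tested. The median SE between regorafenib and vehicle was 0.134 in the main fit and 0.115 with the replicate block. With the replicate block, 9 mitotic genes were called between regorafenib and vehicle, 1 between the combination and regorafenib and 2 between regorafenib and anti-PD1. With the replicate block, 0 genes were called for the combination against anti-PD1, 636 for regorafenib against anti-PD1, 36 for the interaction and 210 among the 5 groups. With a replicate block by column number, 14 mitotic genes were called between the combination and regorafenib, 2 between regorafenib and anti-PD1 and 0 among the 5 groups, and of all genes 35 for regorafenib against vehicle, 1 for the combination, 0 for the combination against anti-PD1, 191 for regorafenib against anti-PD1, 3 for the interaction and 50 among the 5 groups. With the replicate block with length and GC offsets, 2 mitotic genes were called between the combination and regorafenib and 2 between regorafenib and anti-PD1, and of all genes 2 for the combination against vehicle, 978 for the combination against regorafenib, 0 for the combination against anti-PD1, 929 for regorafenib against anti-PD1, 0 for the interaction and 160 among the 5 groups.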
